A study of Mus musculus with 6 samples.

Results

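The Wnt pathway genes of NMuMG cells, a mouse mammary epithelial line used as a model of epithelial to mesenchymal transition, were described under knockdown of Mnt, a transcriptional repressor that partners with Max. Genes were chosen by symbol: the Wnt, Fzd, Sfrp, Dkk, Rspo, Lgr and Dvl families, the co-receptors Lrp5 and Lrp6, and named genes of Wnt secretion, signal transduction and transcription. Of 14526 genes in the deposited table, 33 had such a symbol and 29 had a mean of at least 10 normalised reads over the 6 libraries. All 6 libraries came from NMuMG cells at day 4 of TGF-beta, a cytokine that induces the transition. In 3 of them the cells had received siRNA against Mnt (siMnt), and in the other 3 a non-targeting siRNA (siNTC). In both groups siRNA and TGF-beta were given together 16 hours after plating and renewed on day 2, so the controls were TGF-beta-treated cells as well. The labels do not say whether replicates were separate cultures, and the spread that the p-values below rest on may be technical.

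Wnt ligands are secreted, lipid-modified proteins. Porcn attaches the lipid and Wls carries the ligand to the cell surface, where it binds a Frizzled receptor together with Lrp5 or Lrp6. Without ligand, a complex of Apc, Axin and Gsk3b marks beta-catenin for destruction; with ligand, Dishevelled proteins (Dvl) restrain that complex, and beta-catenin activates genes with factors of the TCF family. Other Wnt signals run through Ror and Ryk receptors, without beta-catenin. In the mammary gland, Wnt signals act in branching and in the maintenance of progenitor cells.

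The 29 genes were 4 ligands, 2 secretion factors, 10 receptors and co-receptors, 4 genes of the R-spondin branch, 7 genes of the Dvl and destruction complex group and 2 TCF factors. No secreted antagonist reached the minimum, so the set tested holds ligands and receptors but no antagonist. The antagonists Dkk3 and Sfrp5, the receptor Fzd6 and the ligand Wnt10b had means between 1.53 and 6.05, with at most 14 recovered reads in any library, and were not tested. Ror2, Wif1, Lef1 and Tcf7l1 were not analysed here. A control library stood apart from its group before any gene is considered: siNTC replicate 3 scored -0.81 on the first principal component of all tested genes, where the other controls had -43.0 and -52.3 and the siMnt libraries 29.4 to 35.5. Results that rest on it are given with and without it.

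Mnt dimers and the related Myc dimers bind the E-box CACGTG, and the promoters of the called ligands Wnt4 and Wnt9a and of Dvl2, the gene with the most E-box copies in its window, are shown for that reason. The windows come from RefSeq on GRCm38.p6, reach from 250 bases before the gene's start towards it, and end before the first annotated exon. They are printed 5′ to 3′ on the strand of the gene, with CACGTG in capitals.
Wnt4 (chr4:137277385-137277488, + strand): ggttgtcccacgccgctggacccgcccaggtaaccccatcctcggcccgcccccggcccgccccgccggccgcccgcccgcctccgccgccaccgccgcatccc
Wnt9a (chr11:59306680-59306927, + strand): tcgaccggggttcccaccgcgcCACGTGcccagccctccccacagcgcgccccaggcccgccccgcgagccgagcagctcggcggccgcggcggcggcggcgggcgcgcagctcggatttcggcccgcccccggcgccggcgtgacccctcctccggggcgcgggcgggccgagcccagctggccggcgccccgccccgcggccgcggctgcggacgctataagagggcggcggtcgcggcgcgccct
Dvl2 (chr11:70000342-70000591, + strand): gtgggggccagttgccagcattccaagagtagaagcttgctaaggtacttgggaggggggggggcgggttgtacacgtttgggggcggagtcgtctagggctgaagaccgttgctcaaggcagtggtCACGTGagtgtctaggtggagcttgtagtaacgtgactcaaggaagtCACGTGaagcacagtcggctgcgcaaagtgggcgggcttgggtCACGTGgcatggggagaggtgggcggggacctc
The Wnt4 stretch held no CACGTG, the Wnt9a stretch held 1, at 228 bases before the start, and the Dvl2 stretch held 3, at 123, 76 and 33 bases before the start. GC content was 83.7% in the Wnt4 stretch, 84.3% in the Wnt9a stretch and 60.8% in the Dvl2 stretch. Promoters from 250 bases before to 50 after the start were given for 20 of the 29 genes, in 23 windows. CACGTG, the same on both strands, stood in 8.70% of these windows, and in 9.79% of the 12645 windows of tested genes. The TCF core CTTTGA, searched on both strands as CTTTGA or TCAAAG, stood in the windows of Fzd1, Gsk3b and Ror1, 15% of the 20 genes beside 14.3% of the 9926 tested genes with a window. A match describes letters in a window and is not a binding site.

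Wnt4 and Wnt9a fell after Mnt knockdown, and no gene of the set rose at the threshold, an adjusted p under 0.05. The test was limma on log2(value + 1), with Benjamini-Hochberg adjustment over all 12568 genes tested. The 2 genes that fell were 6.90% of the 29, where 1.37% of all tested genes fell. None of the 29 rose, where 2.56% of all tested genes rose. At an unadjusted limma p under 0.05, 8 of the 29 were lower and 5 higher, where 10.7% of all tested genes were lower and 12.7% higher. edgeR's quasi-likelihood test on recovered reads called the same 2 genes lower, where it called 1.25% of all tested genes lower and 2.29% higher. DESeq2 called Tcf7 and Wls in addition, 13.8% of the 29, where it called 4.89% of all tested genes lower and 6.71% higher. Neither tool called any of the 29 higher. The median log2 difference of the 29 genes was 0.05, with 16 above 0 and 13 below, and that of all tested genes was -0.01. The medians of both lay near 0. In bulk RNA, fewer cells of a type and less RNA per cell cannot be told apart.

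**Figure D1:**
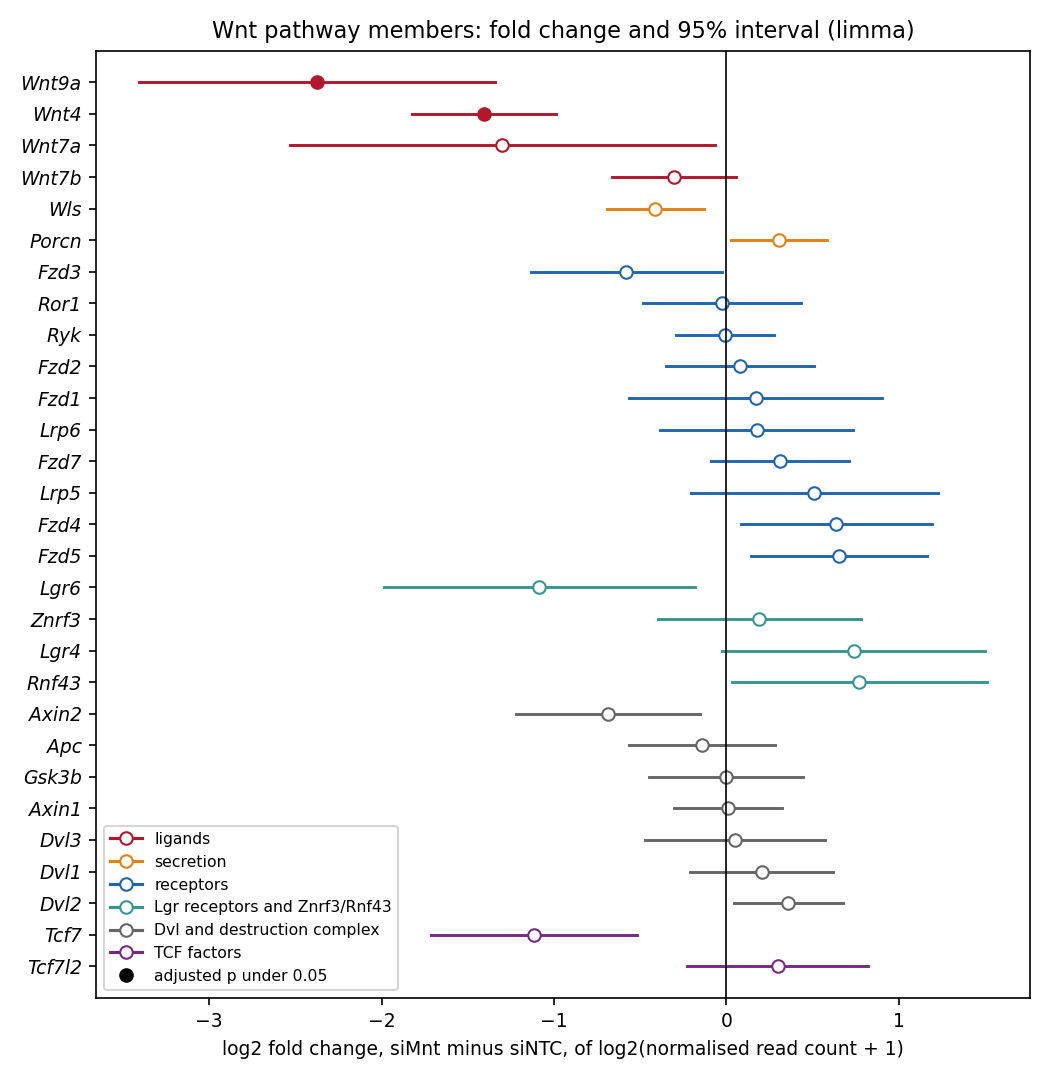
Log2 fold change (siMnt minus siNTC, on log2(value + 1)) of the 29 Wnt pathway genes by role, with 95% intervals from limma; 3 libraries a group, filled points passed at an adjusted p under 0.05. Wnt4 at -1.40 and Wnt9a at -2.38 are the filled points, and the 4 ligands all lie below 0.

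Same-numbered libraries of both groups deviated together, and limma called more genes when it took the replicate number as a block. With the block, limma called Wnt4, Wnt9a, Wnt7a, Tcf7 and Fzd3 lower, 17.2% of the 29 beside 6.56% of all tested genes. It called Fzd5 and Lgr4 higher, 6.90% of the 29 beside 9.33% of all tested genes, a share below the background. Without siNTC replicate 3, limma called Wnt4, Wnt9a, Wnt7a, Tcf7, Wls and Lgr6 lower, 20.7% of the 29 beside 6.5% of all tested genes, and Fzd4 and Lgr4 higher, 6.90% beside 9.51%. The 3 siMnt values lay wholly below the 3 siNTC values in 6 of the 29 genes, where 15.9% of all tested genes did so, and wholly above them in 5, where 15.6% did so. The remaining 18 overlapped. For the 11 genes without overlap the two-sided exact permutation p was 0.1, the smallest that 3 against 3 libraries allow.

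The 4 tested ligands were all lower in siMnt by their means, with a median log2 difference of -1.35. Wnt4, a ligand that progesterone induces in the mammary gland, had normalised read counts of 1114, 914 and 1052 in siNTC replicates 1 to 3 and of 332, 349.6 and 495 in siMnt replicates 1 to 3. Every siMnt library was below every control. The mean fell from 1026 ± 102 to 392 ± 89.5 (SD, n = 3 each), which is 38.2% of control. On the log2 scale the fold change was -1.40 ± 0.18 (SE; 95% interval -1.82 to -0.99), with a limma adjusted p of 0.0163. Within replicate numbers 1, 2 and 3 the log2 differences were -1.74, -1.38 and -1.09, so the direction held in 3 of 3 pairs. The call was lost without siNTC replicate 1 (adjusted limma p 0.0845), siMnt replicate 1 (0.117) or siMnt replicate 2 (0.105). In each of these fits limma called 0 of all 12568 genes, so the loss was not particular to Wnt4. The log2 fold change of Wnt4 stayed between -1.58 and -1.30 whichever library was left out.

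Wnt9a, a ligand known from joint formation and blood stem cell development, had normalised read counts of 455, 613 and 172 in siNTC and of 78.9, 83.5 and 50.2 in siMnt. The controls differed among themselves more than 3-fold, with siNTC replicate 3 lowest, yet each control exceeded each siMnt library. The mean fell from 413 ± 223 to 70.9 ± 18.0 (SD, n = 3 each), 17.2% of control. The log2 fold change was -2.38 ± 0.45 (SE; 95% interval -3.41 to -1.34), with a limma adjusted p of 0.0353. This was the lowest log2 fold change among the 29 genes. The pairs differed by -2.51, -2.86 and -1.75 on the log2 scale. The call held without siNTC replicate 3 (log2 fold change -2.91, adjusted limma p 0.000779). It was lost without siNTC replicate 1 (0.15), siNTC replicate 2 (0.066), siMnt replicate 1 (0.154), siMnt replicate 2 (0.129) or siMnt replicate 3 (0.0889), and in limma without a trend (0.0574).

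Wnt7a, a ligand known from limb patterning and muscle, differed between the groups by an amount that depended on which controls entered. Its normalised read counts were 1000.1, 1572 and 284 in siNTC and 327, 328 and 277 in siMnt. siNTC replicates 1 and 2 were far above the siMnt libraries, and siNTC replicate 3 lay among them. A log2 fold change of -1.30 ± 0.54 (SE; 95% interval -2.53 to -0.07) had an adjusted limma p of 0.195, and 0.0357 with the replicate block. It was -2.01 (adjusted limma p 0.00119) without siNTC replicate 3 and -0.78 (0.354) without siNTC replicate 2. Within pairs the log2 differences were -1.61, -2.26 and -0.03, so the third pair showed almost none.

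Wnt7b, a ligand of mammary and lung epithelium, had the highest level of the 4 ligands. Its normalised read counts were 9487, 6356 and 7553 in siNTC and 6388, 5902 and 6414 in siMnt, and the groups overlapped by siNTC replicate 2. A log2 fold change of -0.30 ± 0.16 (SE; 95% interval -0.67 to 0.06) had an adjusted limma p of 0.285. Exons of Wnt7b overlap those of AU022754 on the opposite strand, and the labels do not say whether strand was kept, so reads of these genes cannot be told apart.

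**Figure D2:**
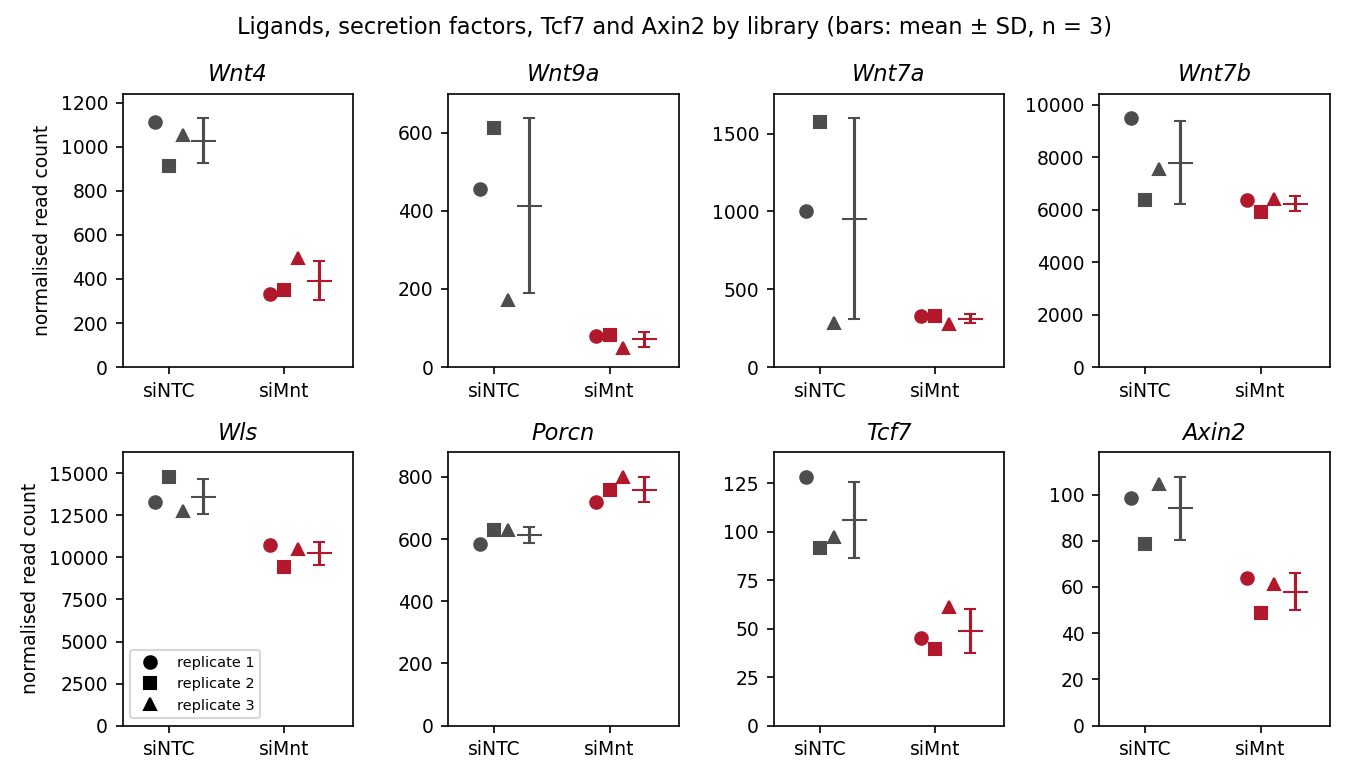
Normalised read count by library for Wnt4, Wnt9a, Wnt7a, Wnt7b, Wls, Porcn, Tcf7 and Axin2; points are replicates 1 to 3 of siNTC and siMnt, and bars are the mean and SD (n = 3). Wnt4 and Wnt9a separate the groups, while siNTC replicate 3 of Wnt7a, at 284, sits among the siMnt libraries.

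Ligand levels were compared with each other per kb of exon, with exon lengths from the GENCODE annotation of GRCm38. In siNTC the mean levels per kb were 1592 for Wnt7b, 300.1 for Wnt7a, 245 for Wnt4 and 124 for Wnt9a. In siMnt they were 1273, 97.9, 93.5 and 21.3 in the same order. Wnt7b led and Wnt9a was last in both group means, and Wnt7a and Wnt4 were close to each other, within the spread of Wnt7a in the controls. The sum over the 4 ligands was 2654, 2195 and 1934 per kb in siNTC and 1510.0, 1417 and 1530 in siMnt, with means of 2261 ± 365 and 1486 ± 60.4 (SD, n = 3 each). The groups did not overlap in this sum. Wnt7b made up 73.0%, 59.1% and 79.7% of the summed level in siNTC and 86.4%, 85.0% and 85.6% in siMnt. In each siMnt library Wnt7b took a larger share than in any control, a description with no test.

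**Figure D3:**
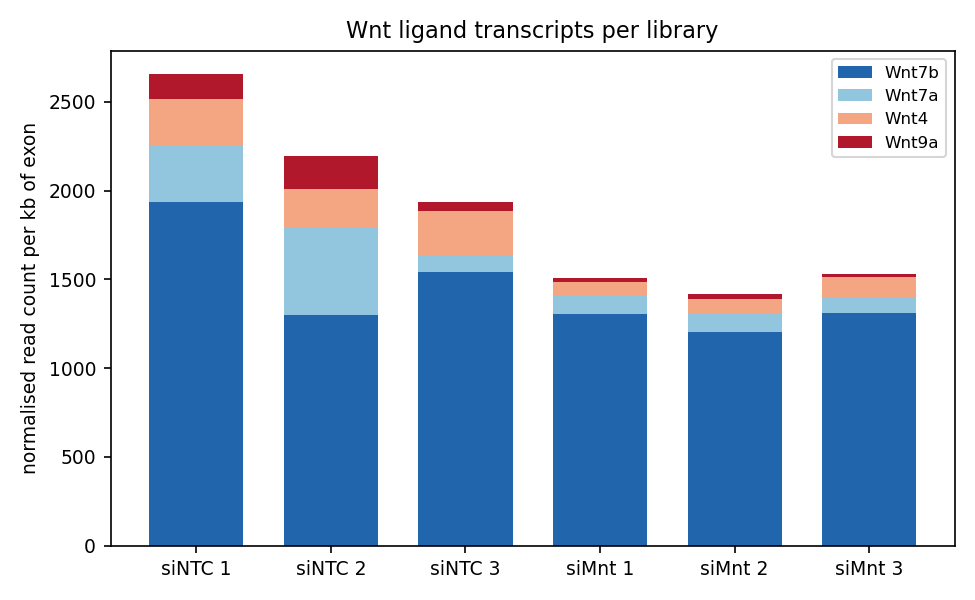
Stacked bars of normalised read count per kb of exon for Wnt7b, Wnt7a, Wnt4 and Wnt9a in each of the 6 libraries. The total lies between 1934 and 2654 in siNTC and between 1417 and 1530 in siMnt, and Wnt7b fills most of each bar.

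Of the secretion factors, Wls and Porcn differed in opposite directions, and neither passed. Wls, the carrier of Wnt ligands, had 13296, 14780.5 and 12760.5 normalised reads in siNTC and 10743, 9438 and 10515 in siMnt. All siMnt values lay below all controls, and the mean in siMnt was 75.2% of control. Its fold change on the log2 scale was -0.41 ± 0.12 (SE; 95% interval -0.69 to -0.13), with an adjusted limma p of 0.0938, of 0.0498 without siNTC replicate 3 and a DESeq2 adjusted p of 0.0205. Porcn, the acyltransferase that lipidates Wnt ligands, had 583, 628 and 629 normalised reads in siNTC and 719, 758 and 800.2 in siMnt. The groups did not overlap here either, with a log2 fold change of 0.31 ± 0.12 (SE; 95% interval 0.03 to 0.58) and an adjusted limma p of 0.178.

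None of the 10 receptors and co-receptors passed in limma on all 6 libraries without the block. Their median log2 difference was 0.17, with 7 above 0 and 3 below. The receptors with the most reads were the co-receptors. Lrp6 had 4899, 2696 and 5128 normalised reads in siNTC and 5008, 3982 and 4916 in siMnt. Lrp5 had 3884, 1891 and 4837 in siNTC and 4741, 4155 and 5226 in siMnt. For both, siNTC replicate 2 was the lowest library, and the other controls lay beside the siMnt values. The log2 fold change of Lrp6 was 0.18 (95% interval -0.38 to 0.74, adjusted limma p 0.709). That of Lrp5 was 0.51 (95% interval -0.20 to 1.23, adjusted limma p 0.36), and 0.11 without siNTC replicate 2.

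Among the Frizzled receptors, the direction differed from gene to gene. Fzd5, a receptor of epithelial tissues such as the gut, had 921, 525 and 903 normalised reads in siNTC and 1277, 1079 and 1234 in siMnt, with no overlap. Fzd5 had a log2 fold change of 0.65 ± 0.22 (SE; 95% interval 0.14 to 1.16), with an adjusted limma p of 0.131, and 0.0203 with the replicate block. Leaving out siNTC replicate 2 gave 0.39 on the log2 scale (adjusted limma p 0.104), and exons of Fzd5 overlap Gm38058 on the opposite strand. Fzd4, known as the receptor of Norrin in retinal vessels, had 125, 112 and 181 in siNTC and 257, 177 and 212 in siMnt. Here siMnt replicate 2 lay just below siNTC replicate 3. The log2 fold change of Fzd4 was 0.64 ± 0.24 (SE), with an adjusted limma p of 0.163, and 0.84 (adjusted limma p 0.0379) without siNTC replicate 3. Fzd3, a receptor with roles in planar polarity and axon guidance, had 597, 340.1 and 468 in siNTC and 303, 249 and 376 in siMnt. The groups overlapped through siNTC replicate 2, although each pair was lower in siMnt. Fzd3 had a log2 fold change of -0.58 ± 0.24 (SE; 95% interval -1.13 to -0.02), with an adjusted limma p of 0.199, and 0.0453 with the replicate block.

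The other receptors were closer between the groups. Fzd7 had 1476, 1026 and 1617 normalised reads in siNTC and 1703, 1626 and 1692 in siMnt, with a log2 fold change of 0.31 (95% interval -0.09 to 0.71, adjusted limma p 0.319). Fzd1, Fzd2 and Ror1, a receptor tyrosine kinase of polarity signalling, had log2 fold changes of 0.17, 0.08 and -0.03. Ryk, a receptor with a Wnt-binding domain and an inactive kinase, had means of 2654 ± 336 and 2629 ± 111 (SD, n = 3 each). Its log2 fold change was -0.01, with an interval from -0.29 to 0.28.

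R-spondins strengthen Wnt signals by binding Lgr receptors and removing Znrf3 and Rnf43, ubiquitin ligases that clear Frizzled from the membrane. No R-spondin was among the 33 genes with a symbol of the rule, so their level in these cells is not known here. None of the 4 genes of this branch passed in limma on all 6 libraries without the block. Lgr4 had 848, 463 and 1249 normalised reads in siNTC and 1591, 1072 and 1341 in siMnt. The groups overlapped through siNTC replicate 3. For Lgr4 the log2 fold change was 0.74 ± 0.33 (SE), with an adjusted limma p of 0.228, and 0.0351 with the replicate block. Without siNTC replicate 3 it was 1.07 (adjusted limma p 0.0337) and without siNTC replicate 2 it was 0.36 (0.362), so the value followed the control left out. Within pairs the log2 differences were 0.91, 1.21 and 0.10.

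Lgr6, the related receptor that marks stem cells in hair follicles, had 81.2, 68.7 and 30.4 normalised reads in siNTC and 22.7, 27.4 and 27.0 in siMnt. Its groups did not overlap, although siNTC replicate 3 came close to the siMnt libraries. Its estimate was a log2 fold change of -1.08 ± 0.39 (SE; 95% interval -1.99 to -0.18), with an adjusted limma p of 0.15, and -1.51 (adjusted limma p 0.0111) without siNTC replicate 3. Rnf43 had 17.5, 16.6 and 22.0 in siNTC and 40.0, 34.6 and 24.5 in siMnt, from as few as 15 reads, with a log2 fold change of 0.77 and an adjusted limma p of 0.2. Lgr4 and Lgr6 lay on opposite sides of 0, and of the pair only Lgr4 passed with the block. Znrf3, the second ligase, had 882, 435 and 741 in siNTC and 838, 648 and 783 in siMnt. Its log2 fold change was 0.19, with an interval from -0.40 to 0.78.

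The Dvl and destruction complex genes stayed near 0 as a group, with a median log2 difference of 0.01 and none of 7 past the threshold. Gsk3b, the kinase that marks beta-catenin, had 7441, 4467 and 6658 normalised reads in siNTC and 6444, 5416 and 6299.8 in siMnt. Its log2 fold change was -0.00, with an interval from -0.45 to 0.44. Apc, a scaffold of the complex, had 4144, 2653 and 3812 in siNTC and 3356, 2750.4 and 3382 in siMnt, with a log2 fold change of -0.14 (95% interval -0.56 to 0.28). In both genes siNTC replicate 2 was the lowest library and the groups overlapped. Axin1, Dvl1 and Dvl3 had log2 fold changes of 0.01, 0.21 and 0.05. Dvl1 shares exon sequence with Tas1r3, so reads of these genes may be mixed.

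Axin2 and Dvl2 were the 2 genes of this group whose libraries separated, 1 lower and 1 higher of 7. Of all tested genes, 15.9% separated lower and 15.6% higher, so this count was near the background. Axin2, a second scaffold and a widely used target of beta-catenin signalling, had 98.7, 78.6 and 105 normalised reads in siNTC and 63.8, 48.9 and 61.3 in siMnt. All siMnt values were below all controls, and the pairs were alike, with log2 differences of -0.62, -0.67 and -0.76. For Axin2 the log2 fold change was -0.69 ± 0.23 (SE; 95% interval -1.22 to -0.15), and the adjusted limma p was 0.129. Dvl2 had 748, 651 and 801 in siNTC and 849.9, 1014 and 959 in siMnt, all above the controls. Dvl2 had a log2 fold change of 0.36 ± 0.14 (SE; 95% interval 0.05 to 0.68), with an adjusted limma p of 0.165. Exons of Axin2 overlap Gm11670 and those of Dvl2 overlap Acadvl, each on the opposite strand, and Dvl2 also overlaps Mir324 on its own strand.

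Tcf7 and Tcf7l2, the 2 TCF factors with enough reads, differed in direction. Tcf7 is a factor known from T cells and is itself a target of beta-catenin in several tissues. It had 128, 91.9 and 97.5 normalised reads in siNTC and 45.4, 39.4 and 61.3 in siMnt. Every siMnt library lay below every control, and the siMnt mean of 48.7 ± 11.3 was 45.9% of the control mean of 106 ± 19.6 (SD, n = 3 each). For Tcf7 the log2 fold change was -1.11 ± 0.26 (SE; 95% interval -1.71 to -0.52). The adjusted limma p was 0.0556, just above the threshold, and 0.0202 with the replicate block, 0.0332 without siNTC replicate 3 and 0.00843 in DESeq2. Within pairs the log2 differences were -1.48, -1.20 and -0.66. Tcf7l2, the main TCF factor of many epithelia, had 629.7, 407 and 730.0 in siNTC and 746, 599 and 778 in siMnt. Its groups overlapped, with a log2 fold change of 0.30 (95% interval -0.23 to 0.82) and an adjusted limma p of 0.469.

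**Figure D4:**
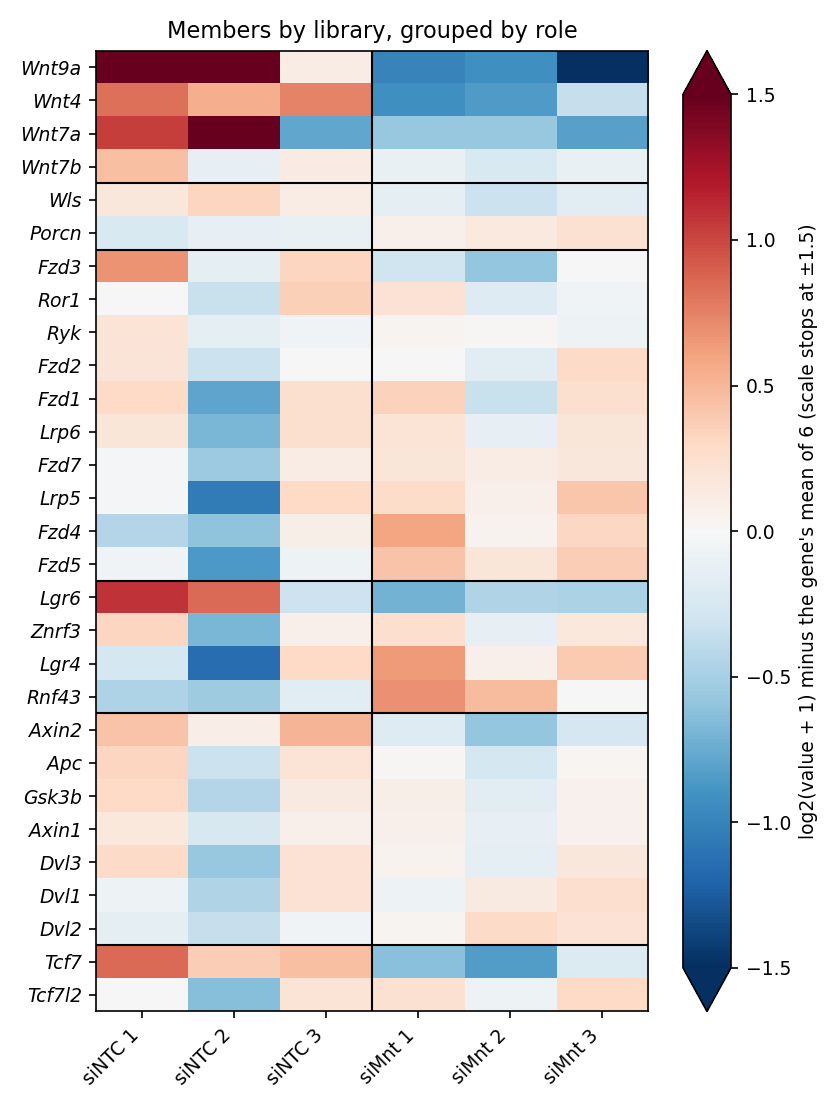
Log2(value + 1) minus the gene's mean over the 6 libraries for the 29 genes, grouped by role, on a scale from -1.5 to 1.5. Wnt4, Wnt9a, Tcf7 and Axin2 are higher in every siNTC column than in any siMnt column, and the siNTC replicate 2 column holds the lowest value of 19 genes.

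Part of the spread within the set ran with single control libraries. siNTC replicate 2 was the lowest of the 6 libraries for 19 of the 29 genes, 65.5%, where it was the lowest for 28.4% and the highest for 31.8% of all tested genes. Lrp5, Lrp6, Lgr4, Fzd5, Gsk3b and Znrf3 were among these 19. The median log2 difference of the 29 genes was -0.08, 0.27 and -0.02 within replicate numbers 1, 2 and 3, highest in the pair with that library. siNTC replicate 3 lay nearer to the siMnt mean than to the mean of siNTC replicates 1 and 2 for 62.1% of the 29 genes. It did so for 60.3% of all tested genes. What set either library apart was not tested.

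Lists of other Wnt pathway genes were described with the same test. Among 14 tested genes known as targets of beta-catenin and TCF, 1 fell and none rose, beside 1.37% and 2.56% of all tested genes. The median log2 difference of the 14 was -0.26. The gene that fell was Ccn5, a secreted matricellular protein. It had 145, 192 and 124 normalised reads in siNTC and 36.8, 22.7 and 42.9 in siMnt, 22.2% of control by the means, with no overlap. Ccn5 had a log2 fold change of -2.16 ± 0.30 (SE; 95% interval -2.86 to -1.46), and its adjusted limma p was 0.0185, or 0.00363 to 0.127 with 1 library left out. It did not pass when siNTC replicate 1 (0.0922) was left out, nor when either of siMnt replicates 1 (0.127) and 2 (0.102) was. In each of these fits limma called 0 of all 12568 genes. At an unadjusted limma p under 0.05, 2 of the 14 targets were higher and 4 lower, beside 12.7% and 10.7% of all tested genes. Limma with the block called 2 of the 14 higher and 6 lower, beside 9.33% and 6.56% of all tested genes. DESeq2 called 1 higher and 3 lower, beside 6.71% and 4.89%, and edgeR none higher and 1 lower, beside 2.29% and 1.25%. Cd44, a hyaluronan receptor, and Ccnd1, the cell cycle gene cyclin D1, had the most reads of this list. Cd44 had 27369, 22788 and 24352 in siNTC and 17678, 13868 and 19272 in siMnt. These did not overlap, with a log2 fold change of -0.56 and an adjusted limma p of 0.0893, or 0.0256 with the block. Ccnd1 had 21714, 16434 and 19359 in siNTC and 22002, 19175 and 20257 in siMnt, and its adjusted limma p was 0.721.

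Among 33 further genes that act in the beta-catenin destruction complex or with beta-catenin in the nucleus, 1 fell and none rose. The shares of all tested genes were 1.37% and 2.56%. The median log2 difference of the 33 was 0.12. The gene that fell was Csnk1e, a casein kinase that phosphorylates Dvl and Lrp6. It had 8693, 7109 and 7069 normalised reads in siNTC and 4763, 4581 and 5480.0 in siMnt, with no overlap. Csnk1e had a log2 fold change of -0.62 ± 0.13 (SE), with an adjusted limma p of 0.0462, and with 1 library left out it passed only without siNTC replicate 3 (0.0195); the adjusted limma p was 0.16 without siNTC replicate 1, 0.0542 without siNTC replicate 2, and 0.223, 0.202 and 0.0877 without siMnt replicates 1, 2 and 3. Csnk1e also did not pass among genes with a mean of at least 50 (0.0517) or in limma without a trend (0.0760). At an unadjusted limma p under 0.05, 4 of the 33 were higher and 2 lower, beside 12.7% and 10.7% of all tested genes. edgeR and DESeq2 each called none higher and 1 lower. Of all tested genes, edgeR called 2.29% higher and 1.25% lower, and DESeq2 6.71% and 4.89%. Limma with the block called 3 of the 33 higher, Dixdc1, Dact3 and Tle3, and 1 lower, beside 9.33% and 6.56% of all tested genes. Without siNTC replicate 3 it called 4 higher and 1 lower, beside 9.51% and 6.5%. Exons of Csnk1e overlap Gm16059 on the opposite strand. Ctnnb1, which encodes beta-catenin itself, had 27375, 22647 and 29987 in siNTC and 29087, 29135 and 27901 in siMnt. The groups overlapped, with a log2 fold change of 0.12 (95% interval -0.23 to 0.46) and an adjusted limma p of 0.684. Tnks2, a tankyrase that destabilises Axin, had 19629, 14257 and 19959 in siNTC and 23228, 20088 and 22160.1 in siMnt, and an adjusted limma p of 0.318.

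Among 11 further modulators of Wnt signals, no gene passed in limma on all 6 libraries, where 2.56% of all tested genes rose and 1.37% fell. Their median log2 difference was 0.05. At an unadjusted limma p under 0.05, none of the modulators was higher and 1 was lower, beside 12.7% and 10.7% of all tested genes. edgeR, DESeq2 and limma with the block called none of them. Limma without siNTC replicate 3 called 1 higher and 1 lower, beside 9.51% and 6.5% of all tested genes. Kremen1, which removes Lrp6 with Dkk proteins, had 1116, 630.3 and 767 in siNTC and 880.1, 719.5 and 815 in siMnt. Apcdd1, a membrane inhibitor of Wnt signals, had 781, 378 and 855 in siNTC and 866, 520.2 and 999 in siMnt. In both genes siNTC replicate 2 was the lowest library and the groups overlapped.

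Mnt itself had 1316, 896 and 1596 normalised reads in siNTC and 613, 557 and 749 in siMnt, 50.4% of control by the means, with no overlap. Its log2 fold change was -0.96 ± 0.22 (SE), with an adjusted limma p of 0.0546, and 0.00442 with the block. Recovered reads per library ran from 22323050 to 42193294, and the deepest library was siNTC replicate 3. Of 9 epithelial markers 7 were in the table, with a summed level of 118685 to 146763 in siNTC and 129359 to 140829 in siMnt. Krt8 and Krt18 were the highest of them. Esrp1 was lower in every siMnt library, at 5.97 to 11.0 beside 12.2 to 26.5 in siNTC. The groups overlapped for the other epithelial markers. The summed level of 5 of 8 myeloid markers was 963 to 1329 in siNTC and 2001 to 2299.8 in siMnt, mostly Csf1r, with the defining Ptprc at 1.29 to 6.65. Csf1r was higher in every siMnt library, at 757 to 1196 in siNTC and 1856 to 2074 in siMnt. So were Itgam, at 4.43 to 8.40 and 17.9 to 28.1, and Lyz2, at 1.94 to 3.49 and 4.90 to 11.9. Cd68 and Ptprc overlapped. The summed level of 4 of 6 fibroblast markers was 308 to 396 in siNTC and 410.5 to 564 in siMnt. Pdgfrb, at 110 to 147 in siNTC and 190 to 318 in siMnt, was higher, as was Dcn, at 6.46 to 7.75 and 8.58 to 19.1. Pdgfra and Col1a1 overlapped. The summed level of 2 of 5 adipocyte markers, mostly Lipe, was 184 to 289 and 316 to 390.2. Endothelial markers, 2 of 5, summed to 65.2 to 99.6 and 41.8 to 49.0. Myoepithelial markers, 4 of 6, summed to 55.6 to 382 and 82.1 to 94.3, and their members split. Krt5 was higher in every siMnt library, at 24.5 to 36.8 in siNTC and 43.0 to 45.3 in siMnt. Krt17 was lower in every siMnt library, at 2.58 to 39.9 and 0 to 1.19. Acta2 and Trp63 overlapped, with Trp63 at 0 in siNTC replicate 2. The part of these markers in the ligand differences was not tested.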

How the data were processed

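Gene expression in 6 libraries was deposited by the authors as a signal, normalised but not logged, for 14526 genes. The values show that reads were scaled by a single factor in each library: 99.75% of those above 0 lay within 0.05 of a whole read once that factor was undone. TopHat2 2.1.0, DESeq2, DESeq 3.5 and mm9 are named in the submitters' processing notes. Not given in the sources used here are the read counter, the annotation, filters and the strand setting. No column was left without a sample.

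Samples were grouped by title. Values were taken as log2(value + 1), a scale that understates the change of low genes. The 1958 genes whose mean was under 10 were left out, and 12568 were tested, two-sided, on all 6 libraries with limma 3.58.1 (empirical Bayes with a trend) in R 4.3.3, with Benjamini-Hochberg adjustment over all of them and a threshold of 0.05. The fit was tested on simulated data. edgeR 4.0.16 and DESeq2 1.42.0 on recovered reads, other pseudocounts (0.5 and 5), filters and scalings, the replicate block and each library left out were alternatives, and edgeR with the block was added after the data were seen. The design allowed for normalised values or counts and was kept.

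Replicate numbers, which the titles give, were checked for pairing. Across genes, deviations from the group means correlated at 0.28, 0.50 and 0.35 for same-numbered libraries. For the others the correlations lay between -0.38 and 0.03. Deviations from a group mean sum to 0, so positive values for same numbers push the others down. The numbers were taken to pair the libraries in the fits with the block and in the differences within pairs. The reported fit did not use the pairing. The members and lists were chosen with earlier results of these data known. Every member is accounted for, and values in every library are given for members that passed, for those that passed only with the block or without 1 library, for the 2 with the most reads of each role and, of the other lists, for genes that passed and the 2 with the most reads. Values given beyond this rule were chosen after they were seen. A further list of pathway genes is not reported here. Levels per kb used the union of GENCODE exons on GRCm38. Promoters are RefSeq's, and coordinates are those of GRCm38.p6 and not of the authors' build. Figures were drawn with matplotlib 3.10.9 in Python 3.11.15.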

Additional observations from a re-analysis of the deposited data

How the results depend on the processing

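No log2 fold change of a gene of the set that passed, in the reported fit or under an alternative, turned its direction. Across the alternatives, 490 values of single genes of the set kept their side of the threshold, 21 newly passed and 9 no longer passed. The count of genes lower in siMnt, 2 in the reported fit, was 1 without limma's trend (Wnt4), 3 with quantile normalisation (Tcf7 in addition, adjusted limma p 0.0458), 5 with the replicate block, 5 with edgeR and the block, 4 with DESeq2, 4 at an adjusted p under 0.1, and 0 to 6 with 1 library left out. The count of genes higher, 0 in the reported fit, was 2 with the block, 2 with edgeR and the block, and 0 to 2 with 1 library left out. The median log2 difference ran from -0.12 to 0.19. Axin1, Dvl3, Fzd1, Fzd2, Gsk3b, Lrp6, Ror1, Ryk and Znrf3, none of them called, changed sign under some alternative. Over all 12568 genes the block moved the counts from 322 higher and 172 lower to 1173 and 825. edgeR with the block called 1161 and 784, and DESeq2 843 and 614. An adjusted p under 0.1 gave 812 and 524, quantile normalisation 278 and 189, and limma without its trend 212 and 94. With 1 library left out, all-gene counts ran from 0 to 1195 higher and from 0 to 817 lower. The largest, 1195 and 817, came from leaving out siNTC replicate 3, the fit with 6 lower genes of the set. The range of the set's counts is therefore not particular to these genes. The cause of the shifts was not tested. In the list of beta-catenin targets the counts ran from 0 to 2 higher and 0 to 6 lower, and in that of destruction complex and nuclear partners from 0 to 4 higher and 0 to 1 lower. Lgr6 and Rnf43, with as few as 21 and 15 reads in a library, were not tested at a mean of at least 50, and their depth limits their precision.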
